A study of Mus musculus with 2 samples.

Results

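Nuclear receptors are transcription factors, most of which bind a lipid-like ligand directly. The 42 genes described here were taken from a list of nuclear receptor symbols and matched to the probes of a whole mouse genome array, by the gene name in the scanner file or by the current symbol of its RefSeq identifier. All 42 had at least 1 probe among the 27238 genes named on the array, with 63 probes in all. The study compared CX3CR1high CD11b+ CD11c+ cells of the large intestinal lamina propria, the connective tissue under the gut epithelium, with blood Ly6c+ CD11b+ monocytes. The colon cells came from CX3CR1gfp/+ mice, which carry green fluorescent protein in place of 1 copy of Cx3cr1, the fractalkine receptor gene. The blood monocytes came from C57BL/6J mice, so genotype and tissue cannot be told apart. Each cell type was 1 pool, and the same 2 pools were compared on 2 arrays with the dyes exchanged. No treatment is named for either pool, and age and sex are not given in the sources used here. The design text gives a number of 10 for the colon cells and 6 for the monocytes without saying what is counted.

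Ligand-activated nuclear receptors sit on DNA as single molecules, as pairs of the same receptor, or as pairs with a retinoid X receptor, and exchange corepressors for coactivators when a ligand binds. Macrophages use several of them to sense sterols, fatty acids, retinoids and vitamin D, which are abundant or made locally in the gut. Other members, such as the NR4A and REV-ERB proteins, are set mainly by how much of them is made, the first after acute stimulation and the second over the day.

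Both arrays together give 1 replicate of the comparison, since both carry the same pools. The SD printed with each ratio is therefore the spread over the 2 arrays, which is technical, and no p-value was computed. A ratio is the log2 of colon intensity over blood intensity, after background correction with an offset and normalization within each array, and a signal is the normalized log2 intensity of 1 pool on 1 array. Signals are set side by side only within a probe, because probes differ in how strongly they bind. A gene counts as measured when the same pool was flagged well above background by the scanner software on both arrays, and as past the size rule when both arrays gave a ratio of 1 or more, or both gave -1 or less, which is a 2-fold difference, and its brighter pool was so flagged on both arrays. Between 52.9% and 59.6% of spots were well above background in a given pool and array, and 0 spots were saturated.

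The labelled cell types were checked against marker genes. Of 13 intestinal macrophage markers, 8 were past the rule in the colon direction, among them Mrc1 at 5.78 ± 0.12 and C1qb at 5.70 ± 0.07. Not past it were Csf1r (0.95 ± 0.34), Cd68 (0.80 ± 0.01), Cx3cr1 and Itgam, and also Fcgr1, which lay on the blood side at -0.62 ± 0.10. All 9 measured Ly6C-high monocyte markers were lower in the colon pool, led by Chil3 at -6.98 ± 0.19. Itgax, which encodes the CD11c used in the sort, was higher in the colon pool at 3.35 ± 0.08, whereas Cx3cr1 stood at 0.10 ± 0.25 and Itgam, which encodes CD11b, at -0.46 ± 0.33. The colon cells have green fluorescent protein in place of 1 Cx3cr1 copy, so genotype and cell type cannot be told apart for the Cx3cr1 ratio. Of 10 measured neutrophil markers, 0 were higher in the colon pool and 5 were lower there, and the list had a mean log2 signal of 9.18 and 9.21 in the colon pool against 10.56 and 10.54 in the blood pool. The lower ones were Mmp8, S100a8, S100a9, Cxcr2 and Lcn2. Not past the rule were Mmp9 (0.96 ± 0.26), Csf3r (0.30 ± 0.26), Ltf (0.00 ± 0.09), Retnlg (-0.01 ± 0.28) and Camp (-0.33 ± 0.02). Ngp was not well above background in either pool, so the list did not share 1 direction. Of 7 measured conventional dendritic cell markers, 1 was lower (Flt3, at -1.5) and 0 were higher. Markers of other cells of the gut wall were higher in the colon pool. This was so for 10 of 11 fibroblast and smooth muscle markers, 12 of 15 epithelial markers, 4 of 11 endothelial markers, 7 of 9 B and plasma cell markers and 7 of 10 T cell markers. The mean log2 signal of the fibroblast and smooth muscle list was 11.60 and 11.51 in the colon pool against 7.26 and 7.10 in the blood pool, and that of the epithelial list was 8.46 and 8.26 against 6.54 and 6.24. In the blood pool 8 of the 15 epithelial markers were not well above background on either array (Epcam, Krt19, Krt20, Vil1, Muc2, Agr2, Cdx1 and Cdx2). What part these cells had in the nuclear receptor values was not tested, and in RNA from pools fewer cells of a type and less RNA per cell cannot be told apart.

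Of the 42 receptor genes, 29 were measured, 7 of them past the size rule as higher in the colon pool and 2 as lower. The 7 higher genes were Nr1h3, Vdr, Rora, Nr4a3, Nr4a2, Nr1d2 and Nr2f1, and the 2 lower genes were Rara and Rarg. These are 24.1% and 6.9% of the measured receptors. Among all 15677 genes measured, 14.2% were higher and 4.46% lower. Because 6 of the 29 were measured through the colon pool alone, and such genes could hardly appear as lower, the counts were also taken over genes well above background in both pools. There 5 of 23 receptors were higher (21.7%, against 12.9% of 13276 genes) and 2 were lower (8.7%, against 5.05%). Over all 42 receptors, measured or not, the shares were 16.7% and 4.76%, against 8.17% and 2.57% of the 27238 named genes. At a 4-fold threshold 4 of the 29 were higher (13.8%, against 6.09% of all measured genes) and 0 lower (against 0.829%), and at 1.5-fold 10 were higher (34.5%, against 22.3%) and 4 lower (13.8%, against 11.0%). With each array centred on its median in place of the intensity-dependent normalization, 5 were higher (17.2%, against 7.26%) and 2 lower (6.9%, against 3.56%). That centring moved the median of all measured genes from 0.06 to -0.28. The move was not the same for all genes, since Nr1h4 went from 0.67 to 0.76 and Rara from -1.85 to -2.63. The median of -0.28 is therefore only a rough reference for single genes. With so few genes and 1 replicate, these shares are a description. The median ratio over the measured receptors was 0.20, beside 0.06 over all measured genes, and single receptors ran from -1.85 to 2.47.

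**Figure D1:**
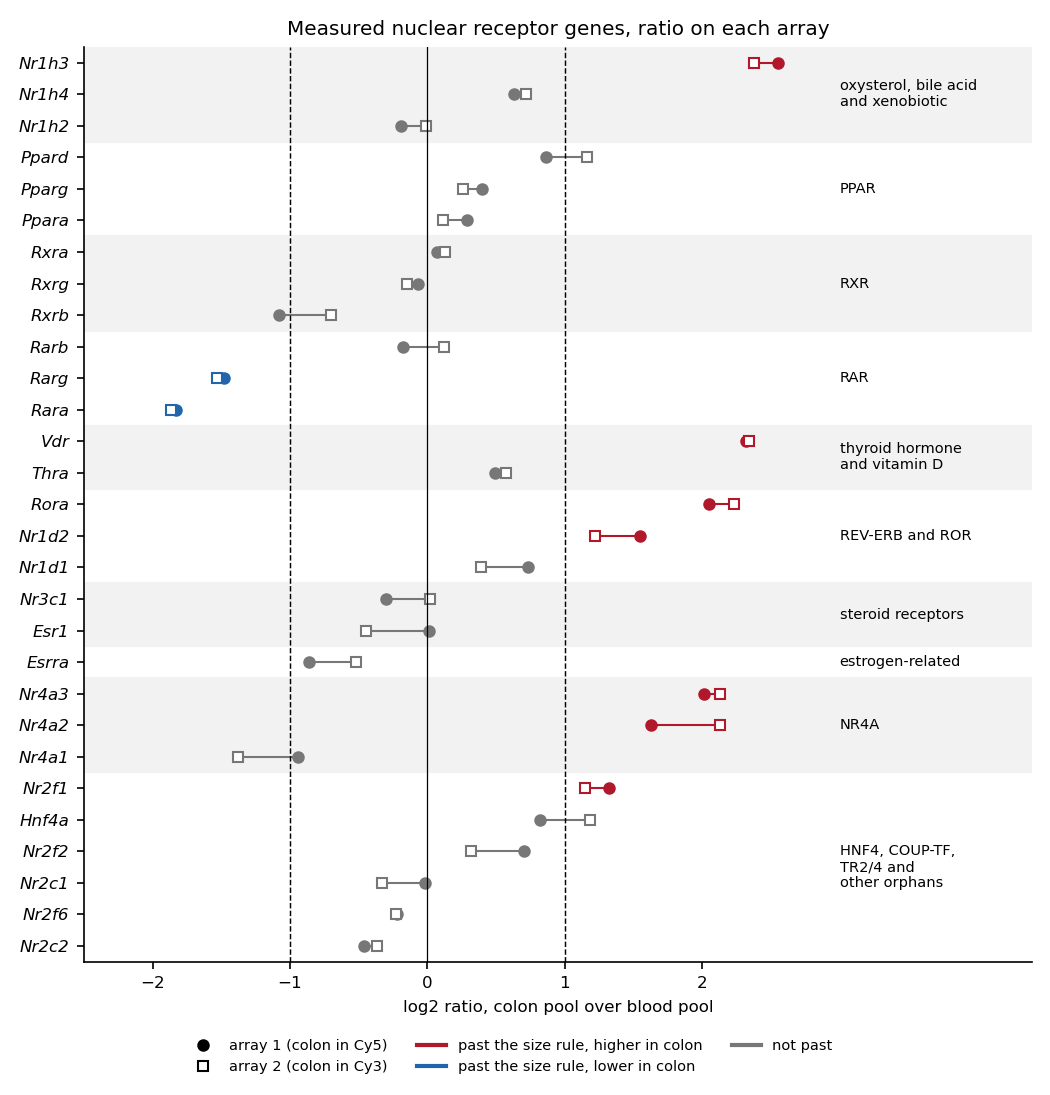
Log2 ratio, colon over blood (x axis), for the 29 measured nuclear receptor genes, grouped by receptor class, with array 1 as filled circles, array 2 as open squares, and dashed lines at -1 and 1. The 7 red genes lie beyond 1 on both arrays and the 2 blue genes, Rara and Rarg, beyond -1 on both, while Nr4a1, Rxrb, Ppard and Hnf4a cross a dashed line on 1 array only.

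Among the receptors for oxysterols, bile acids and xenobiotics, Nr1h3 was 5.52-fold higher in the colon pool and its close relative Nr1h2 was not past the rule. Nr1h3 encodes LXRα, the oxysterol receptor that macrophages induce during lipid loading. Its log2 signal was 11.79 and 11.72 in the colon pool on arrays 1 and 2, and 9.25 and 9.34 in the blood pool. Both colon signals lay above both blood signals, and the ratio was 2.55 on array 1 and 2.38 on array 2 (2.47 ± 0.12). A further Nr1h3 probe gave a mean of 2.58. With median centring the ratio was 2.81 on array 1 and 0.78 on array 2, still positive on both but no longer past the rule. Both probes lie close together on the minus strand, the one used at chr2:91024250-91024309 of the mm9 build and the other at chr2:91024345-91024404. Nr1h2, which encodes the broadly expressed LXRβ, gave colon signals of 11.82 and 12.02 and blood signals of 12.01 and 12.03. Its ratio was -0.10 ± 0.13, with the higher colon signal between the blood signals.

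Nr1h4 encodes FXR, the bile acid receptor of gut epithelium and liver. Its colon signals, 6.92 and 6.84, were well above background on both arrays, and its blood signals, 6.29 and 6.12, on neither. The ratio of 0.67 ± 0.06 was not past the rule, and a bound from the means put the colon pool 1.59-fold higher. This bound sets the mean colon signal against, on each array, the blood probe's own signal or the lowest signal flagged well above background in that channel, whichever is higher, and it is open to the compression of dim signals described further on. Where the blood signals lie above that lowest signal, the bound equals the fold of the mean ratio. A single array or another probe can therefore fall below it. The xenobiotic receptor gene Nr1i2, encoding PXR, was not well above background in any pool or array. Its relative Nr1i3, encoding CAR, was so in the colon pool on 1 array only. Nr0b2, which encodes SHP, the corepressor-like receptor that FXR induces, was never well above background.

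The 3 PPAR genes, which encode sensors of fatty acids, were all measured in both pools and none was past the rule. Ppard came nearest, with colon signals of 11.38 and 11.47 over blood signals of 10.52 and 10.30. Both colon signals exceeded both blood signals, but the ratio reached 1 on array 2 only (0.86 and 1.16, mean 1.01 ± 0.21). Pparg, the receptor gene best known in alveolar macrophages and fat cells, gave 9.73 and 9.65 against 9.33 and 9.40, a ratio of 0.33 ± 0.10. Ppara gave 7.79 and 7.71 against 7.50 and 7.60, a ratio of 0.20 ± 0.13. Read against the median of all measured genes, Pparg lay above it here (0.33 beside 0.06) and with the scanner software's ratios (0.15 beside -0.12), and level with it under median centring (-0.27 beside -0.28). Ppara lay above it here (0.20) and under median centring (-0.09), and below it with the software's ratios (-0.24). Median centring moved bright genes more than dim ones, so the median of -0.28 does not place Pparg or Ppara among genes of similar signal.

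The retinoid X receptors are the shared partners of the LXR, PPAR, RAR, thyroid hormone and vitamin D receptors, and none of the 3 was past the rule. Rxrb was nearest, with signals of 12.14 and 12.20 in the colon pool and 13.22 and 12.90 in the blood pool. Its ratio passed -1 on array 1 (-1.08) and not on array 2 (-0.70), although both colon signals were below both blood signals. Rxra gave 7.32 and 7.39 against 7.25 and 7.26, a ratio of 0.10 ± 0.04. Its probes disagreed in sign, with means from -0.50 to 0.10. Rxrg stood at -0.11 ± 0.06, with probe means from -0.11 to 0.38.

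The retinoic acid receptors held both genes that were lower in the colon pool. Rara encodes RARα, through which retinoic acid acts in myeloid cells. Its signals were 12.98 and 12.71 in the colon pool and 14.82 and 14.58 in the blood pool, a clear gap between pools. The ratio was -1.83 on array 1 and -1.87 on array 2 (-1.85 ± 0.02), so the colon pool was 3.60-fold lower. Another Rara probe gave a mean of -1.41. The probes lie on the plus strand at chr11:98836197-98836256, which gave the value, and chr11:98835350-98835409 of mm9. Rarg, encoding RARγ, was 2.84-fold lower, with signals of 10.38 and 10.41 against 11.86 and 11.94. Its ratios were -1.48 and -1.53 (-1.51 ± 0.04), read by 1 probe at chr15:102065371-102065430. All 9 measured Ly6C-high monocyte markers and 5 of 10 measured neutrophil markers were lower in the same pool, while the other 5 neutrophil markers were not past the rule. The part of such cells in these values was not tested. Both genes kept their side of the rule under each scaling tried, including median centring (-2.63 and -2.20) and the software ratios (-1.90 and -1.69), but neither reached 4-fold.

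Rarb, encoding RARβ, was well above background on both arrays in the colon pool and on 1 array in the blood pool. Its signals, 6.61 and 6.46 against 6.79 and 6.33, overlapped between pools, and the ratios had opposite signs (-0.18 and 0.12). The 2 Rarb probes gave means of -0.03 and 0.50. Rarb is itself a classical retinoic acid target, with a response element near its start, so its promoter is shown, from RefSeq on GRCm38.p6 at chr14:16575477-16575726, minus strand, as the 250 bases before the start written 5′ to 3′. Capitals mark the match to 1 spelling of the classical direct repeat, GGTTCA and AGTTCA with a spacer of any 5 bases between them, searched on both strands.
Rarb: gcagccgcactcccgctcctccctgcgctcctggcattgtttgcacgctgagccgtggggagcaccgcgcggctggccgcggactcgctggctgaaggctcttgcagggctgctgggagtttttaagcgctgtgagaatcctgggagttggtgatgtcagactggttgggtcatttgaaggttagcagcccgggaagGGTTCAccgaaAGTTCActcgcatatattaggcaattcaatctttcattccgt
The repeat starts 53 bases before the start that this window adjoins. The 39 receptor genes with a window have 60 windows in all, so some have more than 1, and 1 is shown here. It was found in 2 of 32851 promoter windows of the same length (0.00609%), and among the receptor genes in Rarb alone, of the 39 with a window. The letters searched are those of the Rarb element itself, with only the spacer left free. A match in Rarb was therefore given in advance, and the low share is no test. Other spellings of the repeat were not counted, so the other receptor windows may hold them. This match is a description of letters in 1 window and not a measurement of binding.

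Vdr, the vitamin D receptor gene, was 5.03-fold higher in the colon pool. Its signals were 9.26 and 9.07 in the colon pool and 6.94 and 6.74 in the blood pool, each pool within a narrow band far from the other. The ratio was 2.32 and 2.34 (2.33 ± 0.01), the closest agreement between arrays among the higher genes, from 1 probe at chr15:97685136-97685195. Thra, encoding the thyroid hormone receptor TRα, gave 10.41 and 10.35 against 9.92 and 9.79. Both colon signals were above both blood signals, but the ratio of 0.53 ± 0.06 was not past the rule. Thrb, which encodes TRβ, was well above background on 1 array in the colon pool and on neither in the blood pool.

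The REV-ERB and ROR receptors compete for the same DNA element in the circadian clock, REV-ERBs repressing and RORs activating. Rora, encoding RORα, was 4.41-fold higher in the colon pool, with signals of 9.24 and 9.11 against 7.19 and 6.89. The ratio was 2.05 on array 1 and 2.23 on array 2 (2.14 ± 0.12), from 1 probe at chr9:69226774-69226833. Nr1d2, encoding REV-ERBβ, was 2.62-fold higher, with 9.68 and 9.43 against 8.13 and 8.21. Its ratio was 1.39 ± 0.24 and its probes gave means from 1.39 to 1.45, the one used lying at chr14:19036568-19036627, but with median centring it stood at 1.82 on array 1 and -0.07 on array 2 and was no longer past the rule. Nr1d1, encoding REV-ERBα, gave 8.79 and 8.68 against 8.06 and 8.28. Its ratio of 0.56 ± 0.24 was not past the rule, and both colon signals were above both blood signals. Nr1d1 and Thra lie on opposite strands of the same stretch of chromosome 11. Rorb, known from retina and brain, was never well above background. The ROR and REV-ERB element, AGGTCA with the bases AANT directly before it, searched on both strands, was in 0.177% of all promoter windows and in 0 of the 60 windows of receptor genes.

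Of the steroid receptors, the glucocorticoid receptor gene Nr3c1 was measured in both pools at similar signals. It gave 11.70 and 11.81 in the colon pool against 12.01 and 11.79 in the blood pool, so the pools overlapped, and the ratios had opposite signs (-0.30 and 0.02). Its probes gave means from -0.14 to 0.45. The estrogen receptor gene Esr1 gave 7.47 and 6.70 against 7.46 and 7.14, again with overlap and opposite signs (0.01 and -0.45). Nr3c2, encoding the mineralocorticoid receptor, was well above background in each pool on 1 array, and the progesterone receptor gene Pgr never was. Esrra, encoding the estrogen-related receptor ERRα, a regulator of mitochondrial genes, gave 10.65 and 10.77 against 11.51 and 11.29. Both colon signals were below both blood signals, and the ratio of -0.69 ± 0.24 was not past the rule. Esrrb and Esrrg were never well above background.

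The 3 NR4A genes, immediate early genes whose products work without a known physiological ligand, went different ways. Nr4a3, encoding NOR1, was well above background in the colon pool alone, at 8.35 and 8.17 against 6.34 and 6.04. Its ratio was 2.01 and 2.13 (2.07 ± 0.08), and the bound from the means put the colon pool 4.20-fold higher. Nr4a2, encoding NURR1, was 3.67-fold higher, with 11.87 and 12.06 against 10.24 and 9.93. Its ratio was 1.63 on array 1 and 2.13 on array 2 (1.88 ± 0.35), and its other probe gave 1.59. The Nr4a2 probe used lies at chr2:56960699-56960758. The Nr4a3 probe was spotted 10 times on each array and its listed position, chr4:48080690-48083876, is wider than its 60 bases. Nr4a1, encoding NUR77, pointed the opposite way. Its signals were 15.31 and 14.76 in the colon pool and 16.25 and 16.14 in the blood pool, so both colon signals were lower. The ratio was -0.94 on array 1 and -1.38 on array 2 (-1.16 ± 0.31), just short of the rule on array 1, from 1 probe at chr15:101105071-101105130. The software ratios (mean -1.19) and an offset of 16 in place of 50 both put Nr4a1 past the rule as lower. With median centring Nr4a2 stood at 1.90 and 0.48 and was no longer past the rule.

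The promoters of these 3 genes are shown because the transcripts differed in direction while the promoters share a feature. Each window is the 250 bases before a start of the gene, from RefSeq on GRCm38.p6, written 5′ to 3′ on the gene's strand. A gene can have more than 1 such window, and 1 per gene is shown. Capitals mark TGACG, core letters of the cyclic AMP response element, and its reverse complement CGTCA. The windows are chr15:101266596-101266845, plus strand, for Nr4a1, chr2:57124004-57124253, minus strand, for Nr4a2, and chr4:48045055-48045304, plus strand, for Nr4a3.
Nr4a1: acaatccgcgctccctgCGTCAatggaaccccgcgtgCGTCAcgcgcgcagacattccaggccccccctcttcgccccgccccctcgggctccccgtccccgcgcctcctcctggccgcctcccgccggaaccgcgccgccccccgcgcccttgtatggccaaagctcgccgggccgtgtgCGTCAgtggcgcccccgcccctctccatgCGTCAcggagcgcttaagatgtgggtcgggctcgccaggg
Nr4a2: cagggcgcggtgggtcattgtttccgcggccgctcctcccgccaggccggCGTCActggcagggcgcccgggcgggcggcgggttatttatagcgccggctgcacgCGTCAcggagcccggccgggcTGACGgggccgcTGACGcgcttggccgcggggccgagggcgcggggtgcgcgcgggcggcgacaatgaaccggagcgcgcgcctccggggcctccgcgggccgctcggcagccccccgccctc
Nr4a3: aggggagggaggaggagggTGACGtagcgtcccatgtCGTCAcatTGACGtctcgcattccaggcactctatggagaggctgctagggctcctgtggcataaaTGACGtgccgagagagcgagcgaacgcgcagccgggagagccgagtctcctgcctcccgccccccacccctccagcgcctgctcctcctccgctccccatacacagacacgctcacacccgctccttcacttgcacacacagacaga
Each window held 4 matches. Those of Nr4a1 were all on the reverse strand, between 233 and 40 bases before the start, those of Nr4a2 lay between 200 and 111 and those of Nr4a3 between 231 and 147. At least 1 match was present in 17.8% of the 32851 promoter windows and at least 4 in 45 windows (0.137%). Of the 39 receptor genes with a window, Nr4a1, Nr4a2 and Nr4a3 alone held at least 4. That cutoff equals the count in each of their own windows, so their passing it was given in advance and is no test. At least 1 match was in 18.3% of the 60 receptor windows, near the share of all windows. The full palindrome TGACGTCA, which contains the shorter match on both strands, was in 1.55% of all windows and in 0 of the 60 receptor windows. These matches describe letters and not occupancy, and no measurement here bears on which factor binds.

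The orphan receptors of the COUP-TF, TR and HNF4 groups held 1 gene past the rule. Nr2f1, encoding COUP-TFI, was well above background in the colon pool alone, at 7.43 and 6.98 against 6.11 and 5.84. Its ratio was 1.32 and 1.15 (1.23 ± 0.12), and the bound from the means put the colon pool 2.33-fold higher. The probes disagreed in size, with means from 0.61 to 1.23, so that the mean over probes (0.92) was not past the rule. The probe used lies at chr13:78328723-78328782. Nr2f2, encoding COUP-TFII, known from stromal and venous endothelial cells, was also measured through the colon pool alone. It gave 6.90 and 6.59 against 6.20 and 6.27, with ratios of 0.70 and 0.32 (0.51 ± 0.27). The bound from the means was 1.42-fold, and array 2 fell below it. Hnf4a, a defining factor of gut epithelium and hepatocytes, gave 7.14 and 7.22 in the colon pool and 6.32 and 6.04 in the blood pool, where it was not well above background. Its ratio was 0.82 on array 1 and 1.18 on array 2 (1.0 ± 0.26), not past the rule. The bound from the means was 2.0-fold, and array 1 fell below it. The lists of epithelial and stromal markers given above were higher in the colon pool alongside these 3 genes and Nr1h4, and the part of such cells in their values was not tested.

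Nr2c1 and Nr2c2, encoding TR2 and TR4, and Nr2f6, encoding EAR2, were well above background in both pools. Nr2c1 gave a ratio of -0.17 ± 0.22 and Nr2c2 one of -0.42 ± 0.06. Nr2f6 gave -0.22 and -0.23. None of them was past the rule in any of the scalings tried. Nr5a2, encoding LRH-1, reached that flag on 1 array in each pool, through 1 probe or the other, and Nr6a1 on 1 array in the colon pool. Nr2e3 and Hnf4g were never well above background.

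In all, 13 of the 42 genes were not measured. The signals of the probes used for them lay between 5.85 and 6.60 in both pools, near the lowest signals flagged well above background, which ran from 5.50 to 6.14. Of the 13, 5 were well above background on some probe, pool and array (Nr1i3, Nr3c2, Nr5a2, Nr6a1 and Thrb) and 8 never were (Nr1i2, Nr2e3, Rorb, Esrrb, Esrrg, Pgr, Hnf4g and Nr0b2). None was well above background in the same pool on both arrays, so no ratio is given for them.

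**Figure D2:**
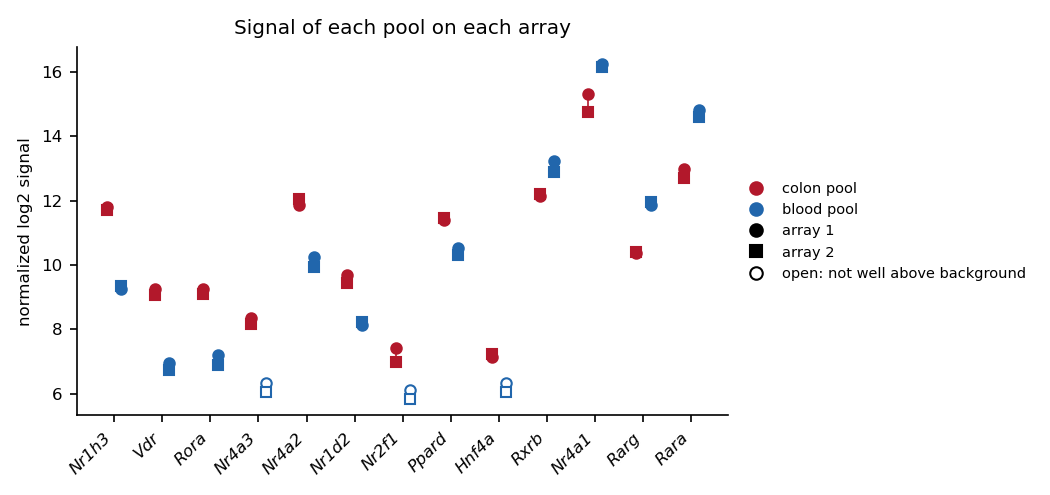
Normalized log2 signal (y axis) of the colon pool in red and the blood pool in blue on array 1 (circles) and array 2 (squares), for the 9 receptor genes past the size rule and the 4 that reached its size on 1 array alone, with open symbols where a pool was not well above background. Signals are comparable within a gene only, and in each of the 13 genes both signals of one pool lie above both of the other, as for Nr4a1 with 15.31 and 14.76 under 16.25 and 16.14.

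Dim genes moved most with the scanner software's ratios and with other background corrections. Under median centring bright genes moved more, with Nr1h3 going from 2.47 to 1.79 and Rara from -1.85 to -2.63, while Nr1h4 went from 0.67 to 0.76. Ratios of the scanner software, which come from its own background treatment and normalization, were larger for genes near background in the blood pool. Nr2f1 went from 1.23 to 4.60, Nr4a3 from 2.07 to 4.22, Nr1h4 from 0.67 to 3.74, Hnf4a from 1.0 to 3.20 and Nr2f2 from 0.51 to 2.63. Lowering the offset from 50 to 16 took Nr2f1 to 2.0 and Nr1h4 to 1.09, and leaving out background correction took them to 1.51 and 0.90. For bright genes both sets of ratios were close, with Nr1h3 at 2.47 and 2.41, Nr4a2 at 1.88 and 1.81, and Rara at -1.85 and -1.90. With the software ratios 10 receptors were higher and 3 lower, among them all 9 named above, joined by Nr1h4, Nr2f2 and Hnf4a as higher and Nr4a1 as lower. Under those ratios 20.2% of all measured genes were higher and 13.3% lower, so that 60.4% of all calls were higher, against 76.1% with the ratios used here. The 2 sets of ratios differ in both background treatment and normalization, and the cause of their difference was not tested.

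**Figure D3:**
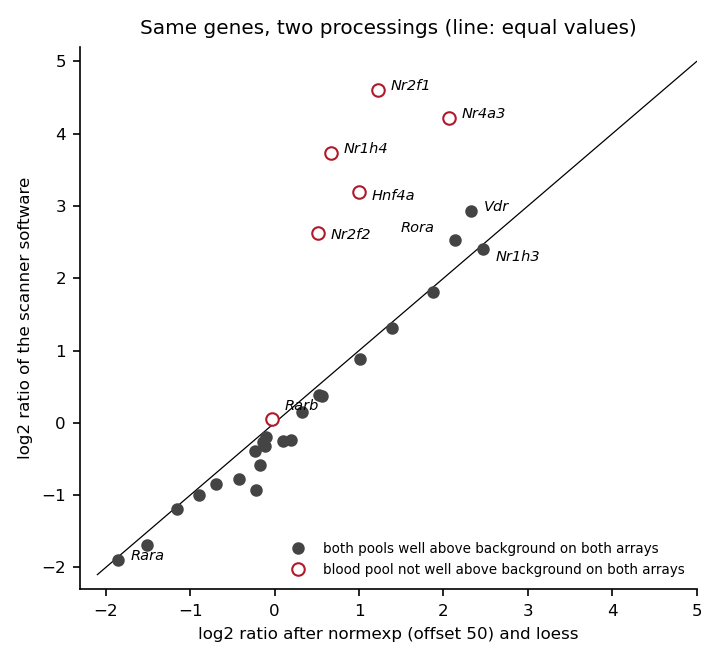
Mean log2 ratio over both arrays after background correction with an offset of 50 and loess normalization (x axis) against the ratio of the scanner software (y axis) for the 29 measured receptors, with the line of equal values. Most filled points, well above background in both pools, lie nearer the line (Nr1h3 at 2.47 and 2.41), with Esr1 (-0.22 and -0.93) and Vdr (2.33 and 2.93) farther off, while 5 of the 6 open points, measured through the colon pool alone, lie far above it (Nr2f1 at 1.23 and 4.60).

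The target genes of the receptors were described from lists of textbook targets. A target list reads the RNA of its genes and not the activity of a receptor. Each count is to be read beside the 14.2% of all measured genes that were higher and the 4.46% that were lower, or 7.26% and 3.56% with median centring. Of 14 LXR targets, the colon pool had 6 past the rule as higher and 2 as lower. The median of the list was 0.48, beside the 0.06 of all measured genes, and with median centring 3 were higher and 2 lower. Abca1, the cholesterol efflux transporter, was 37.4-fold higher (5.22 ± 0.20), with signals of 12.87 and 12.69 against 7.51 and 7.61. Apoe, the lipoprotein that accepts this cholesterol, stood at 3.65 ± 0.48, the efferocytosis receptor gene Mertk at 3.24 ± 0.03 and the phospholipid transfer gene Pltp at 2.22 ± 0.06. Other targets went the opposite way or moved little. Smpdl3a stood at -2.91 ± 0.18 and Apoc2 at -1.42 ± 0.10, while Abcg1, the efflux partner of Abca1, stood at -0.17 ± 0.23 and Srebf1, the fatty acid synthesis regulator, at -0.05 ± 0.08. Genes of this list thus did not share 1 direction alongside Nr1h3.

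Of 13 PPAR targets, whose median was 0.58, 5 were higher and 1 lower, which became 3 and 0 with median centring and 5 and 3 with the software's ratios. Angptl4, an inhibitor of lipoprotein lipase, stood at 3.27 ± 0.25 and the fatty acid receptor gene Cd36 at 3.26 ± 0.07. Plin2, which coats lipid droplets, stood at 1.30 ± 0.07. The lower gene was Acaa2, of fatty acid oxidation, at -1.04 ± 0.04. None of the 3 PPAR genes was past the rule.

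Of 9 retinoic acid target genes, 7 were measured and 6 were higher, with a median of 2.60, whereas Rara and Rarg were lower. Cd38, an NAD-degrading surface enzyme, stood at 3.91 ± 0.02, with signals of 10.77 and 10.62 against 6.85 and 6.73. Tgm2, encoding tissue transglutaminase, stood at 3.57 ± 0.06, and the repressor gene Hic1 at 3.50 ± 0.02. The probes of Hic1 disagreed in size, another giving 0.85. Cyp26a1 and Stra6, which are strongly retinoic acid dependent in other tissues, were not measured. Cyp26b1 was higher at 2.12 ± 0.29, well above background in the colon pool alone, and Dhrs3 was higher at 1.95 ± 0.04. Fibroblast and epithelial markers were higher in the same pool, and their part in this list was not tested.

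Of 4 vitamin D target genes, 1 was measured and 0 were past the rule. Atp2b1, a plasma membrane calcium pump gene, gave 0.94 and 1.47 (1.21 ± 0.37). Cyp24a1, the vitamin D degrading enzyme and the usual marker of receptor activity, was not well above background in either pool, with signals of 5.90 and 5.99 against 6.15 and 6.17. The higher Vdr signal therefore stood beside a Cyp24a1 transcript that was not detectable here.

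Of 16 glucocorticoid receptor targets, whose median was 0.10, 5 were higher and 1 lower, which became 4 and 0 with median centring and 5 and 3 with the software's ratios. The metallothionein genes Mt2 and Mt1 stood at 5.35 ± 0.21 and 3.74 ± 0.39, the signalling inhibitor gene Errfi1 at 4.07 ± 0.17 and the haemoglobin scavenger receptor gene Cd163 at 2.85 ± 0.01. Anxa1 was lower at -1.19 ± 0.19. The most widely used glucocorticoid reporters were not among the higher genes, with Tsc22d3 at -0.72 ± 0.20 and Fkbp5 at -0.82 ± 0.03.

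Of 17 circadian clock genes, 15 were measured and 3 were higher, with a median of 0.47. The 3 became 0 with median centring, 5 with the software's ratios and 2 with the mean over probes. Dbp, a clock output gene, stood at 2.07 ± 0.01, its relative Tef at 1.36 ± 0.28 and the repressor gene Cry2 at 1.12 ± 0.12, with another Cry2 probe at 0.07. Arntl, the activator that REV-ERBs repress, was not past the rule at 0.47 ± 0.17. Per1 stood at -1.04 ± 0.07 and Nfil3 at -1.0 ± 0.30, each short of the rule on 1 array. The time of day of collection is not given in the sources used here, and its part in these values was not tested.

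Of 20 immediate early genes, which share acute induction with the NR4A genes, 19 were measured and 9 were higher, with a median of 0.80, and with median centring 4 were higher. Egr2 stood at 3.34 ± 0.04, Maff at 3.34 ± 0.02, Ier3 at 3.15 ± 0.30 and Fosb at 2.48 ± 0.09. Fos (-0.40 ± 0.27) and Dusp1 (-0.55 ± 0.16) were not past the rule and lay on the side of Nr4a1. The colon cells were released from tissue and the monocytes taken from blood, so isolation procedure and cell type cannot be told apart for this list or for the NR4A genes.

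Of 9 bile acid and xenobiotic targets, 2 were measured and 1 was higher, which became 2 with the software's ratios. Fabp6, the ileal bile acid binding protein, was well above background in the colon pool alone at 7.92 and 7.39, with ratios of 1.84 and 1.43. The bound from the means put the colon pool 3.05-fold higher. Of 16 coactivators, 14 were measured (median -0.02), 2 as higher and 0 as lower, a share of higher genes near that of all measured genes. With median centring 0 were higher, and with the software's ratios 3 were lower. Crebbp, an acetyltransferase gene, stood at 2.50 ± 0.02 and Ncoa4, also the ferritin autophagy receptor, at 1.21 ± 0.04. Of 10 corepressors, all measured (median -0.12), 2 were higher and 0 lower, and 0 were higher with median centring. The mean over probes left 1 higher, as did requiring both pools to be well above background. Nrip1 stood at 1.49 ± 0.05, with probe means from 0.58 to 1.49, and Hr at 1.28 ± 0.26. The classical corepressor gene Ncor1 (-0.77 ± 0.08) was not past the rule. Of the 7 nuclear receptor genes outside the 42, 3 were measured and 0 were past the rule, with Esr2 at 0.74 ± 0.06 and Nr5a1 at 0.00 ± 0.09.

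**Figure D4:**
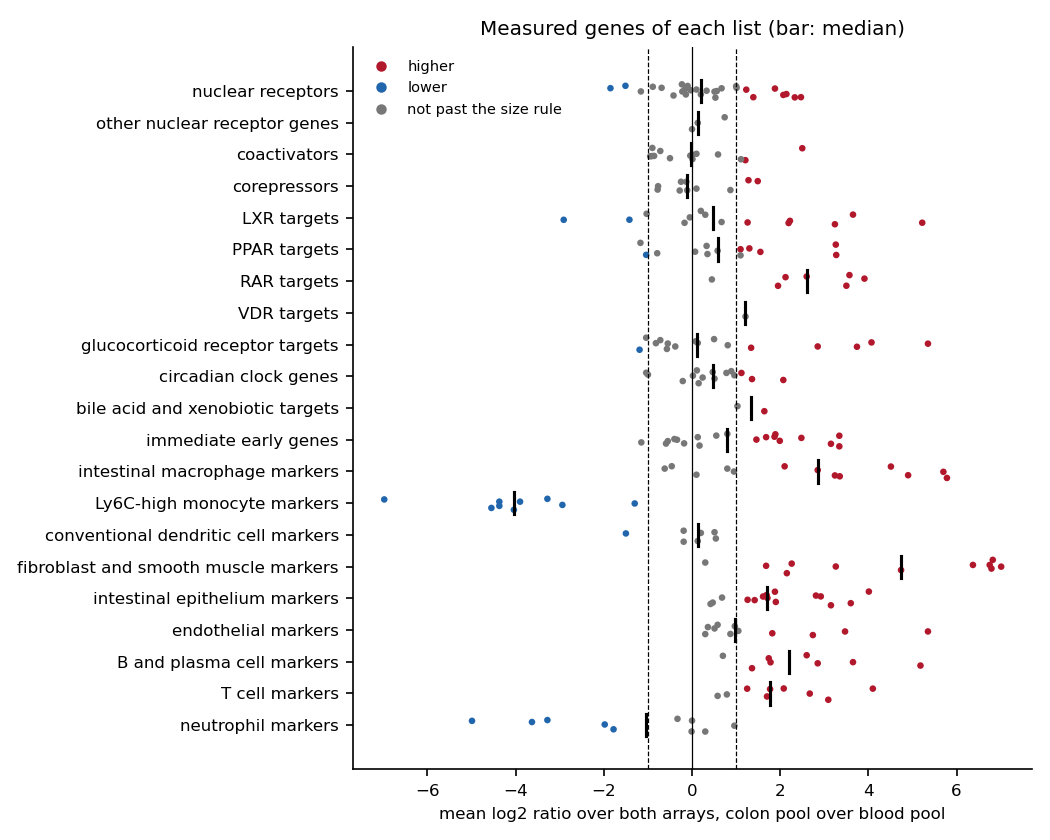
Mean log2 ratio over both arrays, colon pool over blood pool (x axis), of each measured gene of the nuclear receptors, the receptor-related lists and the cell type marker lists (rows), with a black bar at each list's median and dashed lines at -1 and 1. The receptors centre at 0.20 and the retinoic acid targets at 2.60, while the marker lists of fibroblasts and of epithelium centre at 4.74 and 1.71 and that of Ly6C-high monocytes at -4.04.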

How the data were processed

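Each of the 2 arrays of 60-base probes was hybridised with RNA of both pools, amplified from 25 ng of total RNA per the labels' protocols, with the colon pool in Cy5 on array 1 and in Cy3 on array 2. The deposited scanner files hold linear mean spot intensities and median local background intensities, not normalized, and the software's log10 ratio of Cy5 over Cy3, per the file headers. The file headers name Agilent Feature Extraction 10.7.3.1, whereas the submitters' processing notes name 10.5.1.1. That log10 ratio, turned to colon over blood, is also what the deposited value table holds (largest difference 4.81e-08), so scale, centring and direction of the table are those of the software.

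Intensities were background-corrected with normexp (offset 50) and normalized by loess within each array, giving a weight of 0 to control and outlier spots, in limma 3.58.1 under R 4.3.3, which gives the log2 values used. The ratio of array 2 was turned, spots of a probe were averaged, and the probe of highest mean intensity gave the gene's value. Signals of single pools were scaled between arrays by Aquantile, which leaves ratios unchanged. Of 43020 spots that are not controls, 29514 were named through RefSeq accessions and 8766 by the file's name, giving 39424 probes, and 4740 stayed unnamed. Arntl is the array's name for Bmal1, and Ly6c2 was not used here. The files give probe positions on mm9, and whether a probe lies in an exon or a UTR was not determined. Median mean intensities were 96.6 (colon) and 64.2 (blood) on array 1 and 67.1 and 79.9 on array 2, over local backgrounds of 40.5 to 43.0, and the number of arrays limits the precision.

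With 1 replicate there was no test, and calls were by size. Tested on simulated data for this comparison with 43020 spots, the procedure called 100 of 100 probes changed by 1.5 and 100 of 100 changed by 3 on the log2 scale, and 0 unchanged ones. The changed probes were drawn from bright spots only, with equal numbers up and down. Unchanged ones were counted only above an intensity limit, so the simulation does not cover dim genes. Only 100 probes of each size were changed, a far smaller share than was called in the data. No simulated size lay between the threshold of 1 and 1.5, and the noise was preset and not fitted to these arrays. The simulation thus does not show how calls near the rule behave. The members and the gene lists were chosen with earlier results of these data known. All members are accounted for. Of each other list, up to 4 genes per direction past the size rule are named, or the 2 brightest where none passed, and some genes of these lists are not reported here. Genes named beyond this (Abcg1, Srebf1, Cyp26a1, Cyp26b1, Dhrs3, Stra6, Cyp24a1, Tsc22d3, Fkbp5, Arntl, Per1, Nfil3, Fos, Dusp1, Ncor1, Itgax, Cx3cr1, Itgam, Fcgr1, Csf1r, Cd68, Lcn2, Mmp9, Csf3r, Ltf, Retnlg, Camp and Ngp) were chosen after their values were seen. Other corrections, normalizations, thresholds, filters and probe rules were run as alternatives.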

Additional observations from a re-analysis of the deposited data

How the results depend on the processing

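The 9 receptor calls were kept without background correction, with an offset of 16 and with the software ratios, which the deposited value table repeats. Aquantile scaling and each array alone kept them by construction. Aquantile leaves ratios unchanged, and a call already required its size on each array. The mean over probes kept 8 (without Nr2f1), the requirement that both pools be well above background 7 (without Nr2f1 and Nr4a3), and median centring 6 (without Nr1h3, Nr4a2 and Nr1d2, and with Hnf4a added). At a 4-fold threshold 4 receptors were higher and 0 lower, and at 1.5-fold 10 were higher and 4 lower. Taking each array alone gave 7 to 9 higher, 3 lower and a median of 0.13 to 0.14 for the receptors, and 2398 to 2641 higher and 847 to 859 lower among all genes. The receptors' median of 0.20 became -0.11 with median centring, 0.06 with the software ratios and the deposited value table, 0.03 with no filter on dim probes and -0.10 where both pools had to be well above background. The median of all genes was -0.28 under median centring and -0.12 with the software ratios, against 0.06, so the receptors' median lay above it in both, whereas over genes well above background in both pools it lay below (-0.10 beside 0.01). Among all genes, 2224 were higher and 699 lower. Higher genes numbered 1138 with median centring, 3493 at 1.5-fold and 954 at 4-fold. Lower genes numbered 2081 with the software ratios and the value table, 1725 at 1.5-fold and 130 at 4-fold. Higher genes made up 76.1% of calls, 67.1% with median centring and 60.4% with the software ratios. The cause of these shifts was not tested, apart from the thresholds, which by construction change the counts. No paired analysis was possible because both arrays compare the same 2 pools within the array. Signals near background limit what can be said of the 13 receptors not measured and the 6 measured through the colon pool alone.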
